A study of Mus musculus with 14 samples.

Results

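Among the binding sites of the transcription factors GATA2 and RUNX1 in mouse G1ER erythroblasts, 842 sites held called peaks of both factors in Chd7 knockout (KO) cells and of neither in wild-type (WT) cells. All peaks of the 4 factor lists were merged into union sites wherever they overlapped by at least 1 bp, and a site was kept when it held a peak of both KO lists and of neither WT list. The sites were thus chosen by the presence and absence of called peaks in the 4 lists, and so indirectly by peak strength, which is described and not tested. The 842 sites were 0.765% of the 110132 union sites and 4.69% of the 17948 sites at which both factors were called in KO. Of the 842 sites, 838 rested on 1 GATA2 and 1 RUNX1 peak. By comparison, 12916 sites held both factors in both genotypes, called shared sites here, and 337 held both in WT only.

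The data were ChIP-seq peak lists from the G1ER line, which is known to lack endogenous GATA1 and to carry a GATA1 fusion that estradiol switches on. The groups used were WT and Chd7 KO cells, each profiled for the 2 factors and for S2P, the form of RNA polymerase II with phosphate on serine 2 of its tail repeats. Both genotypes were kept in erythropoietin and stem cell factor. The labels name a 48 h estradiol assay for all samples but do not say whether the chromatin came from cells given estradiol. They also do not say whether the KO line was 1 clone. Each factor list came from 1 library and each S2P list was named for 2 replicates, so no difference between genotypes could be set against a replicate spread and none was tested.

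GATA2 is a zinc finger factor of stem and progenitor cells that recognises GATA sequences and gives way to GATA1 as erythroblasts mature. RUNX1 binds DNA as a heterodimer with CBFB, is needed for the emergence of blood stem cells, and shares many enhancers with GATA2 in progenitors. CHD7 is an ATP-dependent chromatin remodeller, and by its title the study asked how it acts with RUNX1 to hold back blood cell differentiation. S2P marks polymerase that is elongating through a gene body, so S2P peaks show where transcription was under way.

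The sequence under the sites could be read only where a site overlapped a RefSeq promoter window, from 250 bases before to 50 bases after a transcription start on GRCm38.p6. In all, 40 sites overlapped 44 windows of 41 genes. Upstream stretches from promoters with both KO summits before the start are shown first, because they give the letters between the GATA2 and the RUNX1 summit. Dnaja3 encodes a mitochondrial co-chaperone of the DnaJ family, and its 250 bases lie at chr16:4683820-4684069 on the plus strand. Acad12 encodes a member of the acyl-CoA dehydrogenase family, and its 250 bases lie at chr5:121618939-121619188 on the minus strand. Capitals mark the bases from the GATA2 summit to the RUNX1 summit in KO, 37 bases at Dnaja3 and 92 at Acad12.
Dnaja3: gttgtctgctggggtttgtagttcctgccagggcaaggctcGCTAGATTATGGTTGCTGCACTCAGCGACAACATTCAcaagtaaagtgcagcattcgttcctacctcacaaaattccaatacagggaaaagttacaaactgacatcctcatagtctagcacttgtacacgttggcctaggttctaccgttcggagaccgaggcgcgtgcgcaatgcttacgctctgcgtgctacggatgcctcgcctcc
Acad12: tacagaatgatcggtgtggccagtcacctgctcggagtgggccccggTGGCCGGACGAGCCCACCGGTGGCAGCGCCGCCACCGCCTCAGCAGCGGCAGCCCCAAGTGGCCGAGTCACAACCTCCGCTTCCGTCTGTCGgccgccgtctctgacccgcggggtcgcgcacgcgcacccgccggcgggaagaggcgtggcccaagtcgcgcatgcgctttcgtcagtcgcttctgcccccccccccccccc
Neither stretch held a GATA motif, searched as AGATAA or TGATAA, or a RUNX motif, searched as TGTGGT or TGCGGT, on either strand. The Dnaja3 site had 45 GATA2 and 47 RUNX1 fragments and lay under S2P peaks of both genotypes, which covered 36.4% of the gene in WT and 50.2% in KO. The Acad12 site had 36 and 43 fragments and no S2P peak in either genotype.

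Other promoters did hold such letters, and 30 bases around each match are shown with the motif in capitals.
Arhgap15 at chr2:43748574-43748603: aacttgatgcACCACAtataaatatacgac
Arhgap15 at chr2:43748614-43748643: tgactataacatTGATAAataatgatatta
Arhgap15 at chr2:43748669-43748698: taaggggaataaTGTGGTtaactacatgta
Upp1 at chr11:9118431-9118460: cgctagagaaggTGTGGTcggggcgtgttc
Mrpl36 at chr13:73330912-73330941: acaaggaaggctTTATCTgctccttagtcg
All 5 stretches are on the plus strand, where ACCACA is TGTGGT and TTATCT is AGATAA read on the other strand. Arhgap15, a gene for a GTPase-activating protein of Rac, was chosen after its values were seen, because its upstream stretch held both kinds of motif. The window belongs to a start that lies inside a longer transcript of the gene. Its GATA2 summit lay 389 bp before the start and its RUNX1 summit 14 bp after it, so the 2 summits flanked the 3 matches. At the uridine phosphorylase gene Upp1 the summits lay 18 bp before and 17 bp after the start, and at the mitochondrial ribosomal protein gene Mrpl36 they lay 46 and 59 bp before it. The upstream stretches at Upp1 and at Mrpl36 also overlapped the annotated span of the same gene. The Upp1 site had 32 GATA2 and 34 RUNX1 fragments and the Mrpl36 site 15 and 17, both without S2P.

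Over all 44 windows, a GATA motif was found in 9, or 20.5% (exact Clopper-Pearson 95% interval 9.80 to 35.3), and a RUNX motif in 7, or 15.9% (6.64 to 30.1). Of the 32851 promoter windows of the same length in the table, 18.6% held a GATA motif and 22.4% a RUNX motif. Windows under sites with both factors in both genotypes held them in 30.7% (28.0 to 33.5) and 24.2% (21.7 to 26.8). The windows of the KO-only sites thus held GATA letters about as often as any promoter, with an interval too wide to separate them from the sites bound in both genotypes. Both motifs stood together in 2 of 44 windows, against 4.21% of all windows.

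The KO-only sites were weak beside shared sites, and the values that follow are those that chose them. Strength is given as the number of fragments piled up at a summit, recovered from the fold enrichment and the −log10 p of the peak. GATA2 summits rested on 8 to 193 fragments with a median of 24, and RUNX1 summits on 8 to 135 with a median of 21, over median local backgrounds of 3.93 and 3.46 fragments. The middle 50% of sites lay between 18 and 32.75 GATA2 fragments and between 16 and 27.75 RUNX1 fragments. Over the whole KO lists the medians were 24 GATA2 and 37 RUNX1 fragments. The GATA2 median of the KO-only sites was thus that of its list, and only the RUNX1 median was lower. At sites with both factors in both genotypes the KO medians were 115 and 51 fragments, so most of the KO-only sites fell in the lower tail of that class. The 337 sites with both factors in WT only were of like strength, with medians of 22 and 18 fragments in the WT lists.

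**Figure D1:**
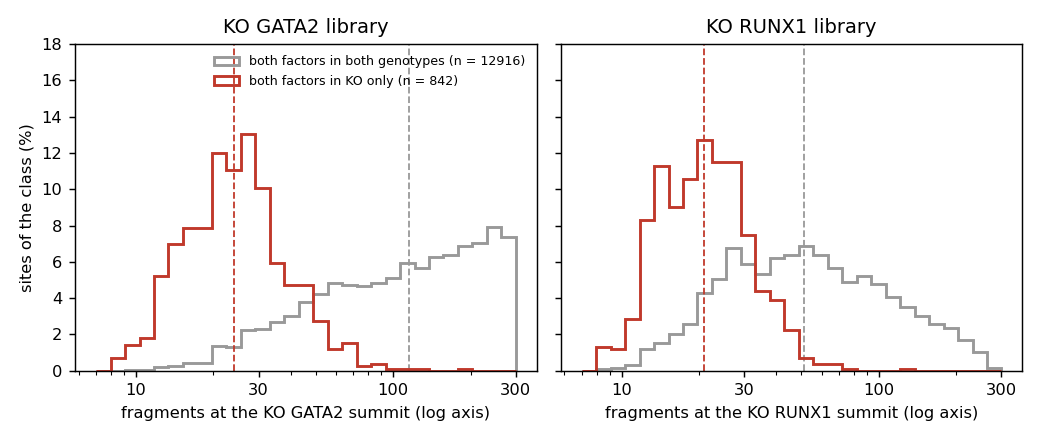
Fragments at the strongest KO GATA2 summit (left) and KO RUNX1 summit (right) of each site, on a log axis, as the percentage of each class of site per bin, with dashed lines at the medians. The 842 KO-only sites (red) centre on 24 and 21 fragments, and the 12916 sites with both factors in both genotypes (grey) on 115 and 51, with no KO summit above 282.

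Measured against what the WT lists could call, many of these sites stood close to the limit. The WT background at these sites is not known, so the KO local background was used. It was scaled by the ratio of the lowest WT to the lowest KO background of that factor. At that background and the lowest −log10 p of each WT list, a WT peak would have needed a median of 12 fragments for either factor. The KO fragments scaled by the same ratio had medians of 22.6 for GATA2 and 20.7 for RUNX1. Relative to the estimated limit of each site, the medians were 1.82 and 1.67 times. Both factors reached 2 times the limit at 130 sites (15.4%) and 3 times at 20 sites (2.38%). A WT summit below the limit is not in the lists, so absence from them does not show that the factor was absent.

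The 2 factors had similar fragment numbers at these sites, as at the WT-only sites, whose WT medians were 22 GATA2 and 18 RUNX1 fragments. The median ratio of GATA2 to RUNX1 fragments was 1.14 at the KO-only sites, and GATA2 had more fragments at 526 of 842 (62.5%). At sites with both factors in both genotypes the ratio was 2.05 and GATA2 had more at 85.5%, but those sites were stronger and the ratios were not compared at matched strength. The fragment numbers of the factors rose together across the 842 sites, with a Spearman correlation of 0.568 and a Pearson correlation of 0.569 on the log2 scale, against a Spearman correlation of 0.629 across the 12916 sites. The points of such a correlation share their library and their local chromatin. The KO lists also shared their background estimate at many sites: the ratio of the GATA2 to the RUNX1 background was 1.13, the ratio of the lowest backgrounds, within 0.5% at 316 of 842 sites. Its part in the joint calls was not tested.

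How often a site lacked a WT peak followed its strength. Sites with both factors in KO were ordered by the lower of their GATA2 and RUNX1 −log10 q, the caller's significance adjusted over its list. The share without a WT peak was 19.2% (94 of 489) for values from 1 to 3, 16.6% (245 of 1473) from 3 to 5, and 8.71% (376 of 4319) from 5 to 10. It was 2.57% (106 of 4126) from 10 to 20, 0.408% (13 of 3187) from 20 to 40, and 0.184% (8 of 4354) at 40 or more. The KO-only class therefore held very few of the strongest sites, and its median value was 5.52, with 339 sites below 5 and 17 below 2.

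The length of the lists bore on the number of sites and on its direction. The KO lists were longer, with 80611 GATA2 and 35281 RUNX1 peaks against 68199 and 28952 in WT. As deposited they gave 842 KO-only against 337 WT-only sites, but with each KO list cut by −log10 q to the length of the WT list the numbers were 414 and 478. The excess of KO-only over WT-only sites thus turned into a deficit, and the number of sites is no measure of gained binding.

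At the edge of the rule, 8 sites had a WT peak 1 to 50 bp away without touching it, and 76 had one within 200 bp. Those 8 had medians of 24 GATA2 and 21.5 RUNX1 fragments. Just outside the rule, 2 sites overlapped a WT peak by 50 bp or less, with medians of 28 and 20.

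Most of the strongest KO-only sites stood in regions with no WT peak, unlike the bulk of the class. At 8 sites both factors had a −log10 q of 40 or more, and at 6 of these the nearest WT peak of either factor was over 100 kb away. The highest lay in an intergenic part of chromosome 17, at chr17:54944540-54944903, 500 kb from the nearest protein-coding gene, St6gal2. It had 83 GATA2 fragments (exact Poisson 95% interval 66.1 to 103) and 65 RUNX1 fragments (50.2 to 82.8), with summits 5 bp apart. The WT-free interval around it spanned 1001 kb and held no other KO peak. The copy number of such regions in the WT and KO lines was not analysed here, and its part in the WT-free intervals was not tested.

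Eda2r, an X-linked gene for a receptor of the tumour necrosis factor receptor family, held the next site, at chrX:97376447-97376916. It had 67 GATA2 fragments (51.9 to 85.1) and 55 RUNX1 fragments (41.4 to 71.6). After scaling these were 7.02 and 6.01 times the estimated WT limit. The nearest WT peak was 732 kb away, and within 100 kb the KO lists held 4 GATA2 and 3 RUNX1 peaks and the WT lists 0.

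Fgf12 encodes an intracellular fibroblast growth factor homologue that acts on sodium channels. Its strongest site, at chr16:28239400-28239775, had 134 GATA2 fragments (112 to 159) and 46 RUNX1 fragments (33.7 to 61.4), with summits 3 bp apart. The other two KO-only sites in the gene had 69 and 12, and 48 and 14 fragments. The KO lists held 18 GATA2 and 3 RUNX1 peaks at the gene and the WT lists 0, so each RUNX1 peak there coincided with GATA2. The WT-free interval spanned 952 kb with 20 KO GATA2 peaks.

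A like cluster lay on chromosome 4, 387 kb from Actl7b. Its main site, at chr4:56352471-56352929, had 193 GATA2 fragments (167 to 222), the most of any KO-only site, and 46 RUNX1 fragments. With it, 5 KO-only sites shared a WT-free interval of 1169 kb, which held 16 KO GATA2 and 6 KO RUNX1 peaks. On chromosome 5 the site at chr5:47469359-47469762 had 60 and 47 fragments, 512 kb from Slit2, in an interval with 19 KO GATA2 and 3 KO RUNX1 peaks. The site at chr5:97397437-97397925, 5.37 kb from Naa11, was the one where RUNX1 led, with 135 fragments (113 to 160) against 65 for GATA2.

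The remaining pair among the 8 lay within ordinary bound regions. The site in Hacl1, which encodes a peroxisomal lyase of fatty acid oxidation, lies at chr14:31618069-31618461 and had 65 GATA2 and 64 RUNX1 fragments. Within 100 kb of it the WT lists held 19 GATA2 and 10 RUNX1 peaks and the KO lists 17 and 10. The site in Specc1, a gene for a cytospin, lies at chr11:62148515-62149059 and had 68 and 67 fragments. A WT GATA2 peak lay 1.33 kb away and the nearest WT RUNX1 peak 15.4 kb away. Within 100 kb there were 8 GATA2 peaks in both genotypes, and 1 RUNX1 peak in WT and 3 in KO.

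**Figure D2:**
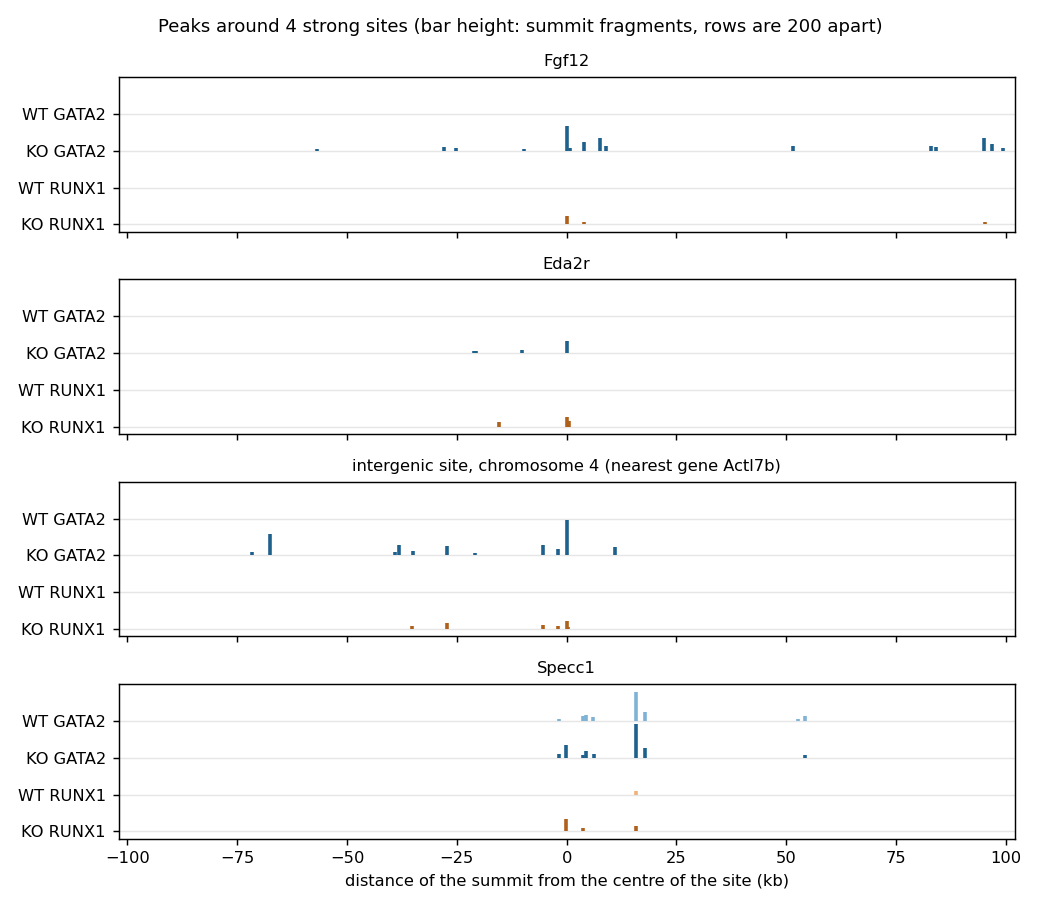
Peak summits of the 4 factor lists within 100 kb of the centre of 4 strong sites, with bar height proportional to the summit fragments and rows 200 fragments apart. Around the sites in Fgf12 and Eda2r and the site near Actl7b only KO lists hold peaks, whereas the site in Specc1 appears among GATA2 peaks of both genotypes.

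A minority of the class lay far from any WT peak. The distance to WT peaks rests on the same lists as the rule and is given as a description. Across the 842 sites the distance to the nearest WT peak had a median of 1773.5 bp, and 324 sites (38.5%) had one within 1 kb. At 45 sites (5.34%, 3.92 to 7.09) there was no WT peak within 100 kb, whereas 5 of the 337 WT-only sites (1.48%, 0.483 to 3.43) had no KO peak within that distance. These shares are not like for like, because the WT lists were shorter than the KO lists. With the KO lists at WT length, 27 of 414 sites were isolated, and isolated WT-only sites were not counted at that length. Among the strongest 10% of the sites, by the lower −log10 q, 16 of 84 were isolated (interval 11.3% to 29.1%), against 29 of the other 758 (3.83%, 2.58 to 5.45).

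The 45 isolated sites lay on 15 chromosomes, in 37 distinct WT-free intervals with a median length of 910 kb. They lay away from transcription as S2P records it. None was under an S2P peak of either genotype (0 of 45, with a Clopper-Pearson upper bound of 7.87%), and 1 had a WT and 2 a KO S2P peak within 100 kb. In all, 11 (24.4%) lay in a protein-coding gene, and 1 lay within 1 kb of either end of such a gene. Besides Eda2r and Fgf12, the isolated sites at genes included Tenm4, a teneurin gene (92 GATA2 and 23 RUNX1 fragments), Dock10, for an exchange factor of small GTPases (56 and 31), and Mdga2 (44 and 14).

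**Figure D3:**
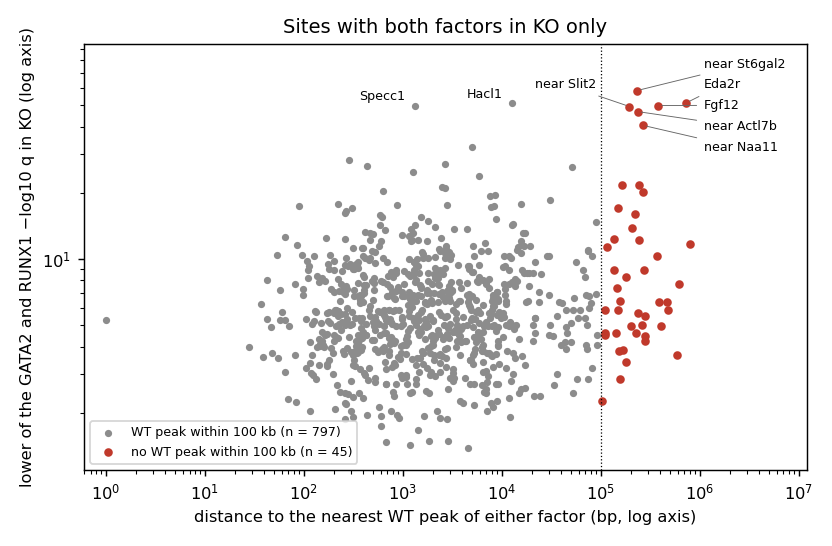
Each point is 1 of the 842 sites, plotted by the distance to the nearest WT peak of either factor and by the lower of its KO GATA2 and RUNX1 −log10 q, both on log axes. Red points are the 45 sites with no WT peak within 100 kb, which include 6 of the 8 strongest sites.

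At the named genes that follow the strongest ones, both factors had comparable fragment numbers and WT peaks were mostly nearby. Mbp, the myelin basic protein gene, held a site with 69 GATA2 and 50 RUNX1 fragments, 284 bp from a WT peak. Ap4s1, for a subunit of the AP-4 adaptor, had 50 and 39 fragments, and F2rl1, for a protease-activated receptor, had 33 and 34. Mlxip encodes the glucose-sensing factor MondoA, and its site had 39 and 37 fragments. Tet3, a dioxygenase that oxidises methylcytosine, had 36 and 27, under S2P peaks of both genotypes.

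The next sites lay at genes of varied function. Epha8, an ephrin receptor gene, had 68 and 37 fragments, and its nearest WT peak was 30925 bp away. Chst11, a chondroitin sulfotransferase gene, had 50 and 34, and Anks1, for an ankyrin repeat adaptor, 34 and 30. A site shared by Shmt2, the mitochondrial serine hydroxymethyltransferase gene, with Ndufa4l2 and Nxph4 had 46 and 57 fragments, 90 bp from a WT peak. The site at Wars, a tryptophanyl-tRNA synthetase gene, and Wdr25 had 64 and 38, and that at Trim46 and Krtcap2 had 34 and 38. In Arhgap15, whose letters are printed above, both summits had 30 fragments but lay 403 bp apart, and the site spanned 625 bp.

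Some genes held several KO-only sites. Cyth3, for an exchange factor of Arf GTPases, held 4 of them within 12532 bp on chromosome 5, with 30 to 44 GATA2 and 31 to 45 RUNX1 fragments. All its peaks numbered 25 in WT and 37 in KO for GATA2, and 12 and 20 for RUNX1, while S2P covered 62.9% and 70.7% of the gene. Atxn1, the ataxin 1 gene, held 3 sites with 10 to 36 GATA2 and 10 to 32 RUNX1 fragments, among 46 WT and 53 KO GATA2 peaks. Over the genome 80 of the sites fell into 37 groups with gaps of at most 20 kb, and 10 of these groups had no WT peak in their span. The groups of 3 or more were those at Cyth3, near Actl7b, and at Lonrf1, St3gal4 and Dcps, and Dapp1.

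Within a site, GATA2 and RUNX1 summits lay less close together than at shared sites. Peaks of a site overlap by the rule, so short distances are partly built in. The median site width was 254 bp at KO-only sites and 464.5 bp at shared sites. The median distance between the KO summits was 37 bp (34 to 41), and 61.5% (58.1 to 64.8) lay within 50 bp. At sites with both factors in both genotypes the median was 19 bp and 78.1% lay within 50 bp. From the weakest to the strongest of 6 bands the medians were 58, 44, 33, 26, 30 and 14 bp at KO-only sites and 49, 38, 29, 24, 19 and 13 bp at shared sites. The shared medians fell from band to band, and the KO-only medians fell except from the fourth to the fifth, where 13 sites remained. In each band the KO-only median was the larger, by 1 to 11 bp, and these gaps were not tested.

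**Figure D4:**
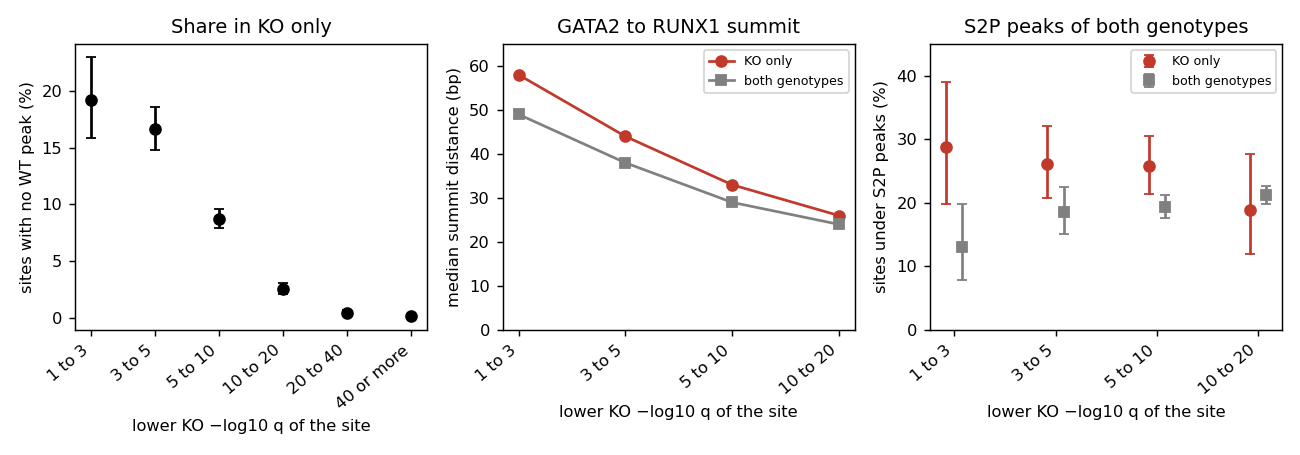
Sites with both factors in KO by the lower of their KO −log10 q values: the share with no WT peak (left), the median distance between the summits (middle) and the share under S2P peaks of both genotypes (right), with exact Clopper-Pearson 95% intervals on the shares. The KO-only share falls from 19.2% to 0.184%. S2P lies over more of the KO-only sites (red) than of the sites bound in both genotypes (grey) in the 3 weakest bands. It lies over fewer in the band from 10 to 20, the last one drawn in the middle and right panels.

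S2P, which the rule did not use, mostly lay over these sites in both genotypes or in neither. S2P peaks of both genotypes lay over 24.8% of the KO-only sites (209, 21.9 to 27.9), against 22.5% of sites with both factors in both genotypes, 9.79% (6.84 to 13.5) of WT-only sites and 18.6% of all sites. S2P was present in KO only at 37 sites, 4.39% (3.11 to 6.01), where 3.23% of all sites had it so, and in WT only at 34 sites, 4.04% (2.81 to 5.60), where 2.98% did. The share with S2P in KO only thus had an interval that held the share over all sites, and the counts in the 2 directions were close. Within strength bands the share under S2P of both genotypes was 28.7%, 26.1% and 25.8% in the 3 weakest bands, against 13.0%, 18.6% and 19.3% at shared sites, with intervals that were apart in the first and the third band and overlapped in the second. In the 3 stronger bands the order was the other way, with 18.9%, 7.69% and 0% at 106, 13 and 8 KO-only sites against 21.2%, 23.6% and 24.6% at shared sites, and the intervals overlapped in each. Among the strongest 10% of the KO-only sites 14.3% (7.61 to 23.6) lay under S2P of both genotypes, against 26.0% (22.9 to 29.3) of the rest.

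The 5 strongest sites with S2P in KO only lay in or beside named genes. Heg1, a receptor of vessel and heart development, had 43 GATA2 and 42 RUNX1 fragments, and Extl3, a glycosyltransferase of heparan sulfate synthesis, had 33 and 36. Ptpn6 encodes the phosphatase SHP-1, which dampens cytokine receptor signalling in blood cells, and its site had 39 and 60 fragments. Rsbn1l had 39 and 41, and the site at Slc16a6 and Arsg had 34 and 29, with a WT factor peak 64 bp away.

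The KO-only sites lay in and beside protein-coding genes about as often as shared sites did. Of the 842, 496 (58.9%, 55.5 to 62.3) had a summit in a protein-coding gene, against 58.9% of shared sites and 56.4% of all sites. In or within 5 kb of one lay 591 (70.2%, 67.0 to 73.3), against 71.2% of shared sites and 69.1% of all sites. A gene end here is either end of a protein-coding gene, the start included. A summit lay within 1 kb of a gene end at 127 sites (15.1%, 12.7 to 17.7), against 11.1% of shared sites, 5.93% (3.66 to 9.02) of WT-only sites and 13.2% of all sites. Summits of all 4 factor lists counted, so a shared site offered more summits to these shares than a KO-only site. The sites near gene ends were more often under S2P of both genotypes, 44.1% against 21.4% of the others. Of the 814 KO-only sites on chromosomes with promoter windows at hand, which leaves out chromosome 18, 4.91% (3.53 to 6.63) overlapped one. The shares were 7.27% of shared sites, 2.11% (0.854 to 4.31) of WT-only sites and 7.52% of all sites. The whole site counted for this overlap, and shared sites were wider, with a median of 464.5 bp against 254 bp.

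Chromosome 5 held more of the sites than its share. It carried 83, 9.86% (7.93 to 12.1), whereas it carried 6.45% of shared sites, 5.64% of WT-only sites and 6.62% of all sites. Of the sites with both factors in KO, 6.58% (5.28 to 8.09) lacked a WT peak on chromosome 5 and 4.55% (4.24 to 4.88) on the other chromosomes together. Chromosome X followed with 5.93% (3.98 to 8.46), chromosome 19 had the lowest share of the autosomes, 2.86% (1.73 to 4.43), and Y had 0 of 12. The chromosome 5 sites were somewhat stronger, with medians of 30 GATA2 and 26 RUNX1 fragments against 24 and 20 elsewhere. With the KO lists at WT length the chromosome held 12.1% of the sites. The chromosome was singled out after its value was seen.

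**Figure D5:**
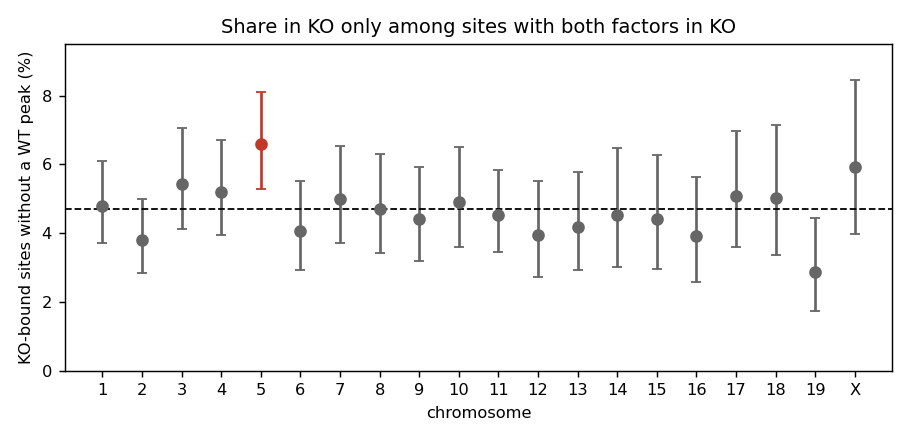
Percentage of the sites with both factors in KO that had no WT peak, by chromosome, with exact Clopper-Pearson 95% intervals and a dashed line at the overall 4.69%. Chromosome 5 (red) stands highest at 6.58% and chromosome 19 lowest at 2.86%, and Y, with 12 such sites, is not drawn.

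Protein-coding genes holding a KO-only site numbered 643, 2.94% of 21887, and most had both factors in WT already. Of the 643, 537 (83.5%, 80.4 to 86.3) had peaks of both factors in WT, 583 had GATA2 and 568 had RUNX1, and only 29 (4.51%) had neither. Among all protein-coding genes 42.7% had both in WT and 36.1% had neither. The genes with a site were also longer, with a median of 40255 bp against 17169 bp, and the part of length in these shares was not tested. Genes with KO-only sites thus mostly had WT peaks elsewhere, as Cyth3 did, and Fgf12, Dock10, Eda2r and Epha8 were among the few with none.

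S2P coverage, the percentage of a gene under S2P peaks, moved little at these genes. Of 556 genes of at least 2 kb with any coverage, 36 (6.47%, 4.58 to 8.85) were higher in KO by 10 points or more, where 5.76% of all such genes were, and 14 (2.52%, 1.38 to 4.19) were lower, where 3.91% were. The median difference of KO minus WT was 0.88 points at these genes and 0.67 points over all genes. The intervals of the shares held the value over all genes in both directions.

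Single genes of the set did differ in S2P coverage, and these were chosen after their values were seen. Glul, the glutamine synthetase gene, was covered over 75.5% in WT and 24.1% in KO, and beside it lay a site with 88 GATA2 and 30 RUNX1 fragments. Ctbp2, a corepressor gene, went from 53.2% to 14.4%, and its site had 19 and 15 fragments. Its factor peaks as a whole were fewer in KO, 6 in WT and 3 in KO for GATA2 and 5 and 1 for RUNX1. Ndufa13, for a subunit of respiratory complex I, went from 44.7% to 15.0%, with 63 and 39 fragments at a site under S2P in KO only. In the other direction Fbxw5, for a substrate receptor of a ubiquitin ligase, went from 48.0% to 70.9%, and Tmem106a from 14.9% to 34.9%. Sites with both factors in KO only were thus found beside lower and beside higher S2P coverage.

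Of the 10 gene lists, the erythroid list was the longest and held the most KO-only sites. Of 54 matched erythroid genes 10 (18.5%) held 11 sites, beside 2.94% of all protein-coding genes with a site. These sites were 5.98% (3.02 to 10.4) of the 184 sites with both factors in KO at these genes. The interval held the 4.57% at all protein-coding genes. The share was higher at the housekeeping list (9.09% of 22 sites) and the lymphoid list (8.33% of 12 sites). Zfpm1, which encodes the GATA cofactor FOG1, had 49 GATA2 and 31 RUNX1 fragments, and Epb41, for the membrane skeleton protein 4.1, had 44 and 29. Pklr, the red cell pyruvate kinase gene, had 37 and 27. Add2, for the adducin beta subunit, held 2 sites, with 29 and 20 and with 18 and 16 fragments. Fth1 (ferritin heavy chain) had 29 and 21, Slc11a2 (an iron transporter) 18 and 28, Nfe2 (a globin locus factor) 18 and 24, Cd36 14 and 16, and Fech (the last enzyme of heme synthesis) 13 and 14. All 10 had GATA2 and RUNX1 peaks in WT as well.

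The genes of the RUNX and CHD families held 3 KO-only sites among 55 with both factors in KO (5.45%, 1.14 to 15.1), those of the cell cycle 2 of 54 (3.70%, 0.452 to 12.7) and the housekeeping genes 2 of 22 (9.09%, 1.12 to 29.2). Each interval held the 4.57% of all protein-coding genes. Cbfb, the binding partner of RUNX1, had a site of 19 GATA2 and 15 RUNX1 fragments under S2P in KO only. Its RUNX1 −log10 q of 1.48 was the lowest among the KO-only sites. The gene had 1 RUNX1 peak in WT and 4 in KO, and 7 GATA2 peaks in WT and 6 in KO. Cbfa2t2, for a corepressor of the ETO family, had 2 sites, with 41 and 26 and with 15 and 15 fragments. Ccnd2, the cyclin D2 gene, had 26 and 32, and Myc had 28 and 25 fragments. Among the housekeeping genes Tubb5 had 27 and 22 fragments and Eef1a1 29 and 23.

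Of the other blood lineages, 3 lists held no KO-only site and 2 held 1 each. The 34 stem and progenitor genes held 0 among 101 sites with both factors in KO, with a Clopper-Pearson upper bound of 3.59%, beside 4.57% over all genes. The 24 megakaryocyte genes held 0 of 23 sites, the 26 myeloid genes 0 of 12 and the 33 non-blood genes 0 of 4. Il1rl1, an interleukin 33 receptor gene of the mast cell list, had a site of 18 and 25 fragments, 1 of the 28 sites (3.57%, 0.0904 to 18.3) at that list. Prdm1, a lymphoid regulator, had one of 16 and 24 fragments, 1 of the 12 sites (8.33%, 0.211 to 38.5) at the lymphoid list. The upper bound for the stem and progenitor genes lay below the share over all genes, and the intervals of the other lists held that share. With 10 lists described and none tested, no list is called different from all genes. Summits of all 4 factor lists placed sites at genes, so sites with WT peaks offered more summits than KO-only sites.

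The labelled cell type was checked on the S2P lists. S2P covered 8 of 10 erythroblast markers in both genotypes, with Slc4a1 and Hbb-b1 at 0. It covered 1 of 4 mast cell markers (Cpa3, 54.5% in WT and 39.8% in KO), 2 of 4 megakaryocyte markers (Gp1ba, 97.9% and 96.8%, and Itga2b, 30.6% and 33.4%) and 1 of 4 myeloid markers (Csf1r, 11.6% and 10.9%). It covered 0 of 4 lymphoid and 0 of 4 non-blood markers.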

How the data were processed

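The authors deposited 6 ChIP-seq peak lists, 1 per target and genotype, from 14 samples of which 6 were inputs. Bowtie2 2.2.1 and MACS2 2.1.0 on GRCm38 (mm10) are named per the submitters' processing notes, without roles or settings. The input used for each list is not given in the sources used here. The lists have no header. The deposited score, fold enrichment (a ratio of summit pileup to local background), −log10 p-value, −log10 q-value and summit offset were identified by checking the values. From the deposited fold and −log10 p, the whole fragment number and the background of each summit were recovered under a Poisson model, with a pseudocount of 1. In the 4 factor lists 100% of summits came out whole within 0.005 of −log10 p. The recovery was tested on simulated data.

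Union sites, their summits and the RefSeq genes of GRCm38.p6 (21887 protein-coding) were handled in Python 3.11.15 with pandas 2.3.3 and scipy 1.17.1. A site belonged to a gene when a KO summit lay in it or within 5 kb. Named genes were the 20 strongest sites at named genes, genes with 3 or more sites, listed genes with a site, and the 5 strongest sites with S2P in KO only. The Dnaja3 and Acad12 stretches came from the strongest promoter sites with both summits before the start, passing over stretches inside a gene. The motif examples were chosen after their values were seen, and stretches inside a gene were not passed over there. The sites and the 10 gene lists were chosen with earlier results of these data known. Binomial and Poisson 95% intervals cover counting error only, since without molecular identifiers the reads may be copies of the same molecule. Nothing was tested between genotypes, because each target had 1 list per genotype. Alternatives changed the −log10 q limit, the list length, the distance to WT peaks, the overlap and summit distance of the KO peaks, the gene end distance, the S2P overlap and chromosome 5. Motifs at summits outside promoter windows were not analysed here. Some genes of the lists and of the isolated sites are not reported here.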

Additional observations from a re-analysis of the deposited data

How the results depend on the processing

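The number of KO-only sites, 842 as reported, was 503 when only KO peaks with −log10 q of 5 or more counted against the whole WT lists, and 414 with the KO lists at the length of the WT lists. It lay between 628 and 846 under the other 7 alternatives, among them 844 when adjoining peaks were merged too, an alternative chosen after seeing the data. The share on chromosome 5 was 12.1% at equal list length and 9.81% to 10.8% under 7 others. The share within 1 kb of a gene end was 11.9% with no WT peak within 500 bp and 12.0% with KO summits within 100 bp of each other, and 22.7% lay within 2 kb of one. The share under S2P of both genotypes was 21.7% at equal list length and 22.0% to 25.6% otherwise. The median summit distance was 30 bp with the stricter KO lists, 29 bp at equal list length, 28 bp with summits within 100 bp and 33 bp with peaks overlapping by 50% of the shorter. Fewer and stronger sites enter by construction in the stricter settings. No paired analysis was possible because each target had 1 peak list per genotype with no column per replicate, and leaving out a replicate could not be run for the same reason. Depth limits the calls: by the estimate from the KO background a WT peak needed a median of 12 fragments, so weaker WT binding is not in the lists.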
